A study of Homo sapiens with 4 samples.

Results

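The miR-23, miR-27 and miR-24 microRNAs (miRNAs) come from a pair of paralogous clusters, miR-23a/27a/24-2 and miR-23b/27b/24-1, each a run of hairpins in a shared primary transcript. Microprocessor cuts each hairpin out of the primary transcript, DICER removes the loop, and 1 strand of the resulting duplex is usually kept in an Argonaute protein, where bases 2 to 8 of the miRNA, the seed, pair with target mRNAs. In these hairpins the 3p strands are known as the main products and the 5p strands as passenger strands. The clusters are widely expressed in epithelial, endothelial and muscle cells, and miR-27 is known for targets in lipid metabolism, miR-23 for glutaminase and miR-24 for cell cycle genes.

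The 10 members described here are products of both clusters in a table of read counts per miRNA and end isoform. They were chosen by name, among 1644 miRNA names in all, and they took 176 of its 12689 isoforms. The question asked of them is how much of each cluster, arm and end isoform these cells make, and how far that moves between transfections that do not encode them.

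HCT116 cells, an established human colorectal carcinoma line, were transfected once with each of 4 plasmid mixtures, and 1 small RNA library was sequenced per mixture. The empty vector mixture held pcDNA3 alone (9 µg). The wild-type mixture held pcDNA3 plasmids of pri-mir-30a, pri-mir-142, pri-mir-30d, pri-mir-576, pri-mir-885, pri-mir-128-1, pri-mir-342 and pri-mir-200b with pri-mir-16-1, at 1 µg each. In the mutant 1 mixture these 8 were replaced by mutated forms (mismatches or wobbles of the upper stem added or removed), again with pri-mir-16-1. For mutant 2, 1 µg of a mutated pri-mir-342 and 1 µg of pri-mir-16-1 were made up to 9 µg with the empty vector. This form holds a mismatch, as by the paper wild-type pri-mir-342 also does. Which mixture the labels mutant 1 and mutant 2 stand for was read only from the order in which the mixtures are listed. No plasmid encodes a member, so the reads below are from the cells' own hairpins.

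The libraries held 14544516 miRNA reads with the empty vector, 17364117 with the wild-type mixture, 19834361 with mutant 1 and 17136599 with mutant 2. Values below are given in this order of the libraries. Reads of miRNAs that none of the 12 pri-miRNAs with a deposited plasmid sequence encodes, called untransfected here, were 92.0%, 70.5%, 70.7% and 88.3% of them. Levels are therefore given in RPM, reads per 1000000 untransfected miRNA reads of the same library. There are no replicates, so the intervals given are 95% intervals for counting error alone, from reads without molecular identifiers, and differences between transfections of the same kind are not covered.

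The hairpins of the miR-23a cluster lie on the minus strand at chr19:13836287-13836659 (GRCh38), a span of 373 bases, in the order mir-23a, mir-27a and mir-24-2. All 3 are within exon 1 of MIR23AHG, a long noncoding host gene at chr19:13823880-13842928. The hairpins of the miR-23b cluster lie on the plus strand at chr9:95085208-95086088, a span of 881 bases, inside the gene AOPEP, which encodes an aminopeptidase. mir-23b and mir-27b overlap no annotated exon of AOPEP, while mir-24-1 overlaps exon 7 of the transcript AOPEP-213. On the opposite strand mir-24-1 is overlapped by mir-3074 (chr9:95086014-95086094).

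The mature sequences are shown because paralogues share seeds and differ in few bases, which decides what a read can be assigned to. All 10 members matched an entry of RefSeq (GRCh38.p14), and the seed is in capitals (hsa, for Homo sapiens, is left out elsewhere). The miR-23 3p strands share the seed UCACAUU.
hsa-miR-23a-3p: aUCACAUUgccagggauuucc
hsa-miR-23b-3p: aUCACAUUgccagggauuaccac
The miR-27 3p strands share the seed UCACAGU.
hsa-miR-27a-3p: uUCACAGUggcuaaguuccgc
hsa-miR-27b-3p: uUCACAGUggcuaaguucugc
miR-24-3p is the same from both of its hairpins, with the seed GGCUCAG.
hsa-miR-24-3p: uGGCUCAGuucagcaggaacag
The 5p strands of the mir-24 hairpins share the seed GCCUACU, and those of the other hairpins each have their own seed among the members.
hsa-miR-24-2-5p: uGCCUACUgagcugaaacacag
hsa-miR-24-1-5p: uGCCUACUgagcugauaucagu
hsa-miR-23a-5p: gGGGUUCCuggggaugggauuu
hsa-miR-27a-5p: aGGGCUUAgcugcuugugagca
hsa-miR-27b-5p: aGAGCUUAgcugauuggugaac

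Over the 21 bases that both miR-23 3p strands have, the only difference between miR-23a-3p and miR-23b-3p is U19A, counted from 1 at the 5′ end. The only difference between miR-27a-3p and miR-27b-3p over 21 bases is C19U. A read that ends before base 19 could not be told apart from its paralogue. Such reads were 0 for both miR-23 strands in every library, at most 4 for miR-27a-3p and at most 6 for miR-27b-3p. Reads that end at base 19 itself are assigned by their last base alone. They were 7027, 5693, 4176 and 5847 for miR-27a-3p (8.75% of its reads with the empty vector), 3310, 3883, 2571 and 3757 for miR-27b-3p (0.774%), 365, 460, 244 and 400 for miR-23a-3p and 54, 45, 39 and 46 for miR-23b-3p. How many of them come from the paralogue was not tested. The 5p strands differ more, by 6 bases between miR-24-2-5p and miR-24-1-5p and by 8 between miR-27a-5p and miR-27b-5p. Every member but miR-24-3p has a mature sequence found at 1 place in the genome.

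Among the reads listed, miR-27b-3p was by far the most abundant member. Its level was 31960 RPM with the empty vector, 29676 with the wild-type mixture, 23784 with mutant 1 and 28798 with mutant 2. It ranked 7, 7, 6 and 7 among the untransfected miRNAs and held 78.0%, 74.7%, 70.5% and 74.2% of all reads of the members. miR-27a-3p, with the same seed, came next, at 6000.04, 6543, 5979 and 6532 RPM. The miR-27 strands thus stood above the miR-23 strands in every library.

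miR-23a-3p had 1864, 2108, 2642 and 2180 RPM. miR-23b-3p had 757, 904, 858 and 824 RPM. The order miR-27b-3p, miR-27a-3p, miR-23a-3p, miR-23b-3p held in all 4 libraries, with gaps beyond counting error. The smallest ratio between neighbours in that order was 2.26 (2.24 to 2.29), for miR-27a-3p to miR-23a-3p with mutant 1. Together the members took 3.77%, 2.80%, 2.39% and 3.43% of all miRNA reads.

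Among the 5p strands, miR-27a-5p led with 175, 208, 209.8 and 199.9 RPM. miR-24-2-5p followed at 137, 155, 181 and 144 RPM, and the ratio of miR-27a-5p to miR-24-2-5p reads stayed above 1 in each library, from 1.16 (1.10 to 1.22) with mutant 1 to 1.39 (1.31 to 1.46) with mutant 2. miR-23a-5p had 45.7, 51.3, 38.6 and 53.2 RPM, next to miR-27b-5p at 43.3, 46.3, 39.4 and 42.1. These neighbours differed beyond counting error only in the mutant 2 library, where the ratio of miR-23a-5p to miR-27b-5p reads was 1.26 (1.14 to 1.40). miR-24-1-5p was lower, at 12.6, 15.93, 15.97 and 14.34 RPM. miR-23b-5p, the strand partner of miR-23b-3p and not a member, had 11, 12, 15 and 9 reads.

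miR-24-3p, textbook main product of both mir-24 hairpins, was close to absent from the table, with 20, 17, 37 and 18 reads. These are 1.49, 1.39, 2.64 and 1.19 RPM of listed reads. What this low value can stand for is limited by the counting and is described at the end.

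The clusters differ in how their reads are spread. Within the miR-23a cluster, miR-27a-3p had 3.219, 3.104, 2.263 and 2.996 reads per read of miR-23a-3p. Within the miR-23b cluster, miR-27b-3p had 42.2 (41.4 to 43.1), 32.8 (32.2 to 33.5), 27.7 (27.2 to 28.2) and 34.97 (34.4 to 35.6) reads per read of miR-23b-3p. In each library the 3p ratio was therefore many times larger in the miR-23b cluster, although hairpins of a cluster share a primary transcript. How much of this comes from the yield of each sequence in library preparation was not tested.

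The share of a paralogue in its pair does not depend on scaling between libraries. The a paralogue held 71.12%, 69.99%, 75.49% and 72.58% of the miR-23 3p reads but 15.8%, 18.1%, 20.1% and 18.5% of the miR-27 3p reads. Without reads that end at or before base 19, a setting added once the data were known, the miR-27 values were 14.7%, 17.2%, 19.4% and 17.7%. The miR-23a cluster was thus ahead for miR-23 and behind for miR-27. On the 5p side miR-27a-5p held 80.2%, 81.8%, 84.2% and 82.6% of the miR-27 5p reads, so the order of the miR-27 paralogues was opposite for the 5p and 3p strands. miR-24-2-5p held 91.5%, 90.7%, 91.9% and 91.0% of the mir-24 5p reads.

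Between libraries, the Wilson intervals of the miR-27a-3p share separate all 4: 15.7% to 15.9% with the empty vector, 17.95% to 18.18% with the wild-type mixture, 19.97% to 20.21% with mutant 1 and 18.4% to 18.6% with mutant 2. For the miR-23a-3p share the mutant 1 library was highest, 75.1% to 75.9%, and the wild-type library lowest, 69.5% to 70.5%. With only the most frequent isoform of each strand this share was 70.01%, 69.16%, 71.01% and 70.24%, a smaller gap, while the miR-27a-3p share was 15.39%, 18.15%, 23.94% and 19.41%, a wider one. The miR-24-2-5p share did not separate any libraries, with overlapping intervals that together run from 89.4% to 92.9%. With 1 library per mixture, whether such differences exceed those between repeated transfections was not tested.

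To see whether the members' levels moved between transfections, the scaled reads were compared for each plasmid mixture against the empty vector and for mutant 1 against wild type, and a miRNA was called when it passed 1.5-fold in either direction with a mean of at least 50 reads. miR-24-3p was under that minimum in all 4 comparisons, which left 9 members. With the wild-type mixture against the empty vector, 0 of the 9 members were called, where 10.8% of 471 untransfected miRNAs were. With mutant 1 against the empty vector the count was 0 of 9, where 20.6% of 471 were called. With mutant 2 against the empty vector it was 0 of 9, with 9.26% of 486 called, and with mutant 1 against wild type 0 of 9, with 14.9% of 470 called. Among members with a mean of at least 1000 reads, a minimum added after the data were seen, 0 of 6 were called in each comparison, with 3.49%, 18.8%, 3.47% and 11.5% of all miRNAs at that depth, in the same order of comparisons. These 6 are among the 9, so their count was fixed by the counts above. A count of 0 in 9 is close to what such backgrounds give, so nothing is read from it about the members. The first 3 comparisons share the empty vector library.

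The widest ratios of the 9 members were those of mutant 1 against the empty vector. miR-23a-3p had 24942, 25806, 37060 and 32995 reads, and its log2 ratio was 0.50 (0.48 to 0.53), or 1.42-fold, higher than that of 414 of the 471 miRNAs. This value is near the threshold and passed it under 2 other scalings, with log2 ratios of 0.62 by TMM and 0.59 by the median of ratios, but was 0.12 by all miRNA reads and -0.55 by miR-16-5p reads. miR-27b-3p had 427663, 363284, 333625 and 435842 reads and a log2 ratio of -0.43 (-0.43 to -0.42), higher than that of 92 of the 471. By all miRNA reads it was -0.81, past 1.5-fold, and by miR-16-5p reads -1.48, but -0.31 by TMM and -0.34 by the median of ratios.

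Members of a cluster did not move together in that comparison. In the miR-23a cluster, the log2 ratios for mutant 1 against the empty vector were 0.50 for miR-23a-3p, -0.01 for miR-27a-3p (-0.02 to 0.01) and 0.40 for miR-24-2-5p (0.32 to 0.49). In the miR-23b cluster they were 0.18 for miR-23b-3p (0.14 to 0.22), -0.43 for miR-27b-3p and 0.34 for miR-24-1-5p (0.05 to 0.63). The 5p strands of the miR-23 and miR-27 hairpins were at -0.24 (miR-23a-5p), 0.26 (miR-27a-5p) and -0.13 (miR-27b-5p). Among the 3p strands, that of miR-27 was below that of miR-23 in each cluster, and this order does not depend on the scaling. The SD of the log2 ratio over the 471 miRNAs was 0.49, so each of these values except that of miR-23a-3p lies within 1 SD of the median of -0.02.

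In each other comparison the widest ratio of the 9 members was smaller. For the wild-type mixture against the empty vector the 9 log2 ratios ran from -0.11 for miR-27b-3p to 0.33 for miR-24-1-5p, with a median of 0.18 against 0.09 over the 471 miRNAs. For mutant 2 against the empty vector they ran from -0.15 for miR-27b-3p to 0.23 for miR-23a-3p, with a median of 0.12 against 0.05 over the 486. For mutant 1 against wild type they ran from -0.41 for miR-23a-5p to 0.33 for miR-23a-3p, with a median of -0.08 against -0.15 over the 470. In that comparison scaling by TMM or by the median of ratios turned miR-23b-3p and miR-27a-3p positive. The median over the 470 was then 0.07 and 0.05, in that order. Scaling by all miRNA reads moves each log2 ratio of wild type or mutant 1 to the empty vector by -0.38, which turns the sign of 8 of the 10 members for wild type and of 3 for mutant 1.

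The authors normalised by miR-16-5p, whose hairpin was on a plasmid in all mixtures but the empty vector. miR-16-5p was at 16944, 34753, 35128 and 41556 RPM. Scaled by it, the median log2 ratio of all miRNAs moved to -0.95 for wild type, -1.07 for mutant 1 and -1.24 for mutant 2 against the empty vector, and 9, 8 and 9 of the 9 members passed 1.5-fold downwards, where 85.4%, 87.0% and 95.7% of all miRNAs were called. Mutant 1 against wild type, where both mixtures hold that plasmid, stayed at 0 of 9.

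The hairpins of mir-27a and mir-27b are shown with both mature arms in capitals, since the reads of their arms stood in very different proportions. The yield of each sequence in library preparation was not tested.
mir-27a, chr19:13836440-13836517, minus strand: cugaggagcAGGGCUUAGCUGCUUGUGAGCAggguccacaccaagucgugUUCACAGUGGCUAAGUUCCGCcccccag
mir-27b, chr9:95085445-95085541, plus strand: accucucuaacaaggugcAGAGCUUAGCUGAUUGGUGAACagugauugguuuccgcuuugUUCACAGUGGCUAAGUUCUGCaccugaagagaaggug
The stretch from the 5p start to the 3p end is 62 nt in mir-27a and 63 nt in mir-27b, with 19 and 20 nt between the arms.

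The 5p strand held 2.83%, 3.08%, 3.39% and 2.97% of the reads of mir-27a, and 0.135%, 0.156%, 0.165% and 0.146% of those of mir-27b. In other terms, there were 34.3 (32.9 to 35.7) 3p reads per 5p read for mir-27a and 739 (681 to 801) for mir-27b with the empty vector.

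The same contrast was seen for miR-23. The 5p strand held 2.39%, 2.38%, 1.44% and 2.38% of the reads of mir-23a, and 0.108%, 0.108%, 0.125% and 0.0722% of those of mir-23b, the last from 9 to 15 5p reads. The mir-23b values were 0.0206%, 0, 0.0345% and 0 with only reads at the miRBase start. With only the most frequent isoform they were 0.119%, 0.0182%, 0.0610% and 0.0929%. In both pairs the hairpin of the miR-23b cluster had the lower 5p share in every library. For mir-24, the 5p strands of both hairpins held 99.0%, 99.2%, 98.7% and 99.3% of the listed reads, a value set by the near absence of miR-24-3p from the table.

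The 5p share of mir-23a was lower with mutant 1 (1.33% to 1.57%) than in the other libraries (2.20% to 2.59% over their intervals). The ratio of its 5p to 3p reads was 1.68-fold lower with mutant 1 than with the empty vector (log2 -0.75, -0.91 to -0.58) and 1.66-fold lower than with wild type. A change past 1.5-fold in either direction was seen for 1 of 3 hairpins of the clusters, mir-23a, in both comparisons. With only the most frequent isoform of each arm the decrease was 1.49-fold and 1.41-fold, so 0 of 3 passed. In that setting 44.6% and 26.4% of 121 untransfected hairpins passed. With only reads at the miRBase start the decrease was 1.61-fold and 1.66-fold, so 1 of 3 passed, where 44.8% of 116 and 30.8% of 117 did. With all isoforms such a change was seen for 45.5% of 121 untransfected hairpins with both arms measured for mutant 1 against the empty vector, and for 23.1% of 121 for mutant 1 against wild type. In the remaining comparisons it was seen for 0 of 3, with 18.9% of 122 for wild type and 15.7% of 127 for mutant 2 against the empty vector. Arm ratios thus differed widely between the mutant 1 library and the empty vector library for hairpins that no plasmid encodes. The log2 change of mir-23a was negative and below that of all but 15 of the 121 hairpins against the empty vector, and below all but 3 of the 121 against wild type, or all but 27 and 20 with the most frequent isoforms. This arm comparison, with its other settings, was added after the data were seen.

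The 3p ends were next compared, since the end of a 3p strand lies where Microprocessor cuts, apart from later trimming and tailing. The paralogues with a 1-base difference ended differently. miR-27a-3p was mostly 21 nt, with 57.5%, 57.0%, 63.0% and 60.2% of its reads, and 33.5%, 35.7%, 31.9% and 33.7% at 20 nt. miR-27b-3p was mostly 20 nt, with 59.5%, 56.9%, 50.4% and 56.8%, and 37.67%, 40.02%, 46.28% and 40.10% at 21 nt. The usual miR-27b-3p read is therefore 1 base shorter than its annotated form and ends 1 base after the base that tells it from miR-27a-3p. The counts give only the ends of a read, and mismatches at the 3p end were allowed. The bases shown are thus those of the genome between these ends.
most frequent miR-27b-3p read: uUCACAGUggcuaaguucug

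miR-23a-3p had 47.3%, 48.1%, 43.6% and 46.5% of its reads at its annotated 21 nt and 31.8%, 31.7%, 36.1% and 33.8% at 22 nt. miR-23b-3p had 49.7%, 49.7%, 54.5% and 51.9% at its annotated 23 nt and 28.4%, 28.1%, 23.1% and 26.3% at 21 nt. It thus had more reads at 21 nt than at 22 nt (18.3%, 19.1%, 19.8% and 19.1%), a profile with 2 peaks that miR-23a-3p did not have. Their reads were spread over many ends: the effective number of isoforms (the inverse of the summed squared shares) was 2.97 for miR-23a-3p and 2.87 for miR-23b-3p with the empty vector, above 121 and 117 of 146 untransfected miRNAs with at least 1000 reads in every library. It was 2.02 for miR-27b-3p and 2.22 for miR-27a-3p, near the median of 2.07. miR-27a-5p was the most uniform member of those with enough reads, at 1.44, above 41 of the 146.

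Reads were longer in both mutant libraries than with the empty vector, most with mutant 1. The mean length of miR-27b-3p was 20.40, 20.43, 20.50 and 20.43 nt, and that of miR-23b-3p 22.14, 22.16, 22.27 and 22.21 nt. With mutant 1 against the empty vector, all 6 members with at least 1000 reads were longer, as were 135 of the 146 untransfected miRNAs at that depth. With mutant 2 against the empty vector it was 6 of 6 and 126 of the 146, and with wild type 4 of 6 and 89 of the 146. A gain of more than 0.1 nt was seen for 2 of the 6, miR-23b-3p (0.127 nt) and miR-23a-3p (0.1003 nt), where 31.5% of the 146 had one. Against wild type, mutant 1 gave 2 of 6, miR-23a-3p (0.139 nt) and miR-23b-3p (0.108 nt), with 29.5% of the 146. For wild type against the empty vector it was 0 of 6 with 6.16%, and for mutant 2 against the empty vector 0 of 6 with 15.1%. The shift to longer reads was therefore seen across the library and does not set these miRNAs apart. This length comparison was added after the data were seen.

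The start of a read sets its seed. The miR-27 3p strands started almost only at the miRBase start, with 99.7%, 99.8%, 99.8% and 99.7% of miR-27a-3p reads and 99.4% of miR-27b-3p reads in each library. miR-23a-3p had 97.5%, 97.8%, 97.7% and 97.8% and miR-23b-3p 95.7%, 96.0%, 96.2% and 95.9%. Over the 146 untransfected miRNAs the median was 98.3% in every library. miR-27a-3p was above 130, 132, 136 and 130 of them, miR-27b-3p above 107, 111, 104 and 110, miR-23a-3p above 59, 62, 61 and 61, and miR-23b-3p above 43, 47, 46 and 43.

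The remaining miR-23 reads mostly started 1 nt downstream, with 3.94%, 3.72%, 3.41% and 3.80% of miR-23b-3p and 2.04%, 1.76%, 1.86% and 1.81% of miR-23a-3p. The share was higher in miR-23b-3p in each library, and no interval of one overlaps an interval of the other. For miR-27b-3p this downstream start was 0.332%, 0.312%, 0.228% and 0.292% of reads, or 1418, 1135, 760 and 1272 reads. It gives the seed CACAGUG, which is that of miR-128-3p, miR-216a-3p and miR-3681-3p.

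miR-24-2-5p mostly did not start where it is annotated. Only 14.3%, 13.4%, 11.7% and 13.4% of its reads did, and 81.5%, 83.1%, 85.9% and 82.9% started 1 nt upstream. Its share at the miRBase start was above that of 7, 6, 7 and 7 of the 146 miRNAs, 13 of which were under 50% in each library. Its most frequent read also ended 1 nt past the annotated end and was 24 nt long, with 61.5%, 64.6%, 67.1% and 64.3% of its reads, and its seed is moved to UGCCUAC, which no listed mature miRNA of RefSeq has. The bases shown are again those of the genome between its ends.
most frequent miR-24-2-5p read: gUGCCUACugagcugaaacacagu
By the usual geometry of a hairpin, the start of a 5p strand lies at the Microprocessor cut.

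miR-23a-5p was split between starts, with 79.58%, 82.96%, 83.21% and 82.36% at the miRBase start and 20.4%, 16.7%, 16.8% and 17.6% 1 nt upstream. The intervals of the upstream share overlap in all libraries (17.4% to 23.8% with the empty vector, 14.0% to 19.8% with wild type, 13.9% to 20.2% with mutant 1 and 15.2% to 20.4% with mutant 2). Of the reads that started upstream, 55.2%, 60%, 58.2% and 70.4% also ended 1 nt upstream, which keeps their length at 22 nt. miR-27b-5p had 7.60%, 6.35%, 7.41% and 8.48% of its reads 1 nt upstream, while miR-27a-5p had 99.6%, 99.4%, 99.4% and 99.5% at the miRBase start. The 5p starts thus varied more between hairpins than between libraries.

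miR-24-1-5p had 13.6%, 16.4%, 15.6% and 12.0% of its reads at the miRBase start, 52.1%, 42.1%, 55.4% and 55.3% 1 nt upstream and 21.9%, 30.8%, 18.3% and 19.4% 3 nt upstream. These reads cannot be told apart from those of the opposite strand. miR-3074-3p has the same 20 isoforms by genome position, with the same number of reads in the 4 libraries in 20 of 20, and a total of 169, 195, 224 and 217 reads for each name. The same reads were thus listed for both strands, so the reads and levels given for miR-24-1-5p are upper limits for that strand and the miR-24-2-5p shares of the mir-24 5p reads are lower limits, while its start shares and its ratios between libraries could lie either way. The isoform that starts 3 nt upstream and is 22 nt long, with 21, 41, 19 and 28 reads, covers the very bases of annotated miR-3074-3p.

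The table holds almost no miR-24-3p, and what it holds is uneven. The mature sequence is found at 2 places in the genome, mir-24-1 and mir-24-2, and by the authors' description only unambiguous reads were assigned, yet the listed form 1 nt longer is also found at both places. No read with both annotated ends was listed in any library. The isoforms that start at the miRBase start and run 1 nt or 2 nt past the annotated end had the same reads, 8, 7, 15 and 3, and a pair of isoforms that start 2 nt downstream had the same reads too, 1, 1, 0 and 6. With each such pair counted once, 11, 9, 22 and 9 reads were left, but whether the same reads were listed under 2 ends was not tested. Of its 7 isoforms, 4 lie at positions in mir-24-1 that are also listed for the antisense miR-3074-5p, and 2 of these have the same reads there in all libraries, 1, 1, 1 and 6 in sum. The form that runs 2 nt past the end is the shortest of these whose last base differs between the loci, as shown with the seed in capitals.
from mir-24-1: uGGCUCAGuucagcaggaacagga
from mir-24-2: uGGCUCAGuucagcaggaacaggg

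Of 47 untransfected miRNAs with 2 or more places in RefSeq, 32 had under 100 reads with the empty vector and 9 had at least 1000. Low counts were common in the whole table too. Of all 1608 untransfected miRNAs, 471 had a mean of at least 50 reads over the wild-type and empty vector libraries. Nothing is therefore read from these counts about miRNAs with several places. Why the listed reads of miR-24-3p are few was not tested, so its values here describe listed reads only and not its level in these cells. The 5p strands of its hairpins had 1830 to 2538 reads (miR-24-2-5p) and 169 to 224 reads (miR-24-1-5p, or its antisense).

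Among 166 untransfected miRNAs outside the clusters with a mean of at least 1000 reads, those whose levels over the 4 libraries were most like the summed 3p strands of the members were miR-191-5p, miR-181a-2-3p, miR-330-5p, miR-151a-3p and miR-181d-5p. The summed 3p strands were at 40583, 39232, 33266 and 38336 RPM, and miR-191-5p, the nearest, at 148837, 145261, 120964 and 143557. The root mean square difference of the centred log2 levels was 0.016 for miR-191-5p and 0.025 for miR-181d-5p, against a median of 0.147 over the 166. The sum follows miR-27b-3p, which is most of it, and 4 libraries are few for such a likeness.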

How the data were processed

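The counts, as the authors deposited them, are raw reads per miRNA and end isoform. Small RNA (TruSeq kit) was trimmed with cutadapt to 18 to 26 nt, filtered on quality, aligned to hg38 with Bowtie2 and assigned to miRBase v22, keeping unambiguous reads with mismatches only at the 3p end. A positive 3p value was read as a shorter read: of 10981 isoforms with a RefSeq length, 10981 were then 18 to 26 nt, against 9274 with the other sign. Reads were summed per miRNA and divided by untransfected reads. Shares have Wilson intervals, and ratios normal intervals on the log scale. A call needed 1.5-fold and a mean of 50 reads. Alternatives changed the scaling, the filter and the isoforms counted, with edgeR 4.0.16 and DESeq2 1.42.0 in R 4.3.3. The rest used Python 3.11.15, pandas 2.3.3, numpy 2.4.6, scipy 1.17.1 and matplotlib 3.10.9. Only the 1.5-fold calls of levels and the Wilson intervals were tested on simulated data. Positions are from GENCODE release 44 and RefSeq. Besides members, the rule named miR-16-5p, miR-23b-5p and the 5 miRNAs nearest in profile. Members and lists were chosen with earlier results of these data known.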

Additional observations from a re-analysis of the deposited data

How the results depend on the processing

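The count of members past 1.5-fold, 0 in each comparison, stayed at 0 with reads at the miRBase start only, which left 8 members. In that setting 11.4%, 21.8%, 9.81% and 16.8% of untransfected miRNAs were called, in the order of comparisons above. miR-24-1-5p fell under the minimum of 50 reads there, with 23 such reads with the empty vector and 32 with wild type. Its log2 ratio between these libraries was then 0.60, past 1.5-fold. The count is 0 by construction with a fold of 2 and with a mean of at least 1000 reads, the latter added after seeing the data. Scaled by miR-16-5p it was 9 for wild type, 8 for mutant 1 and 9 for mutant 2 against the empty vector. For mutant 1 against the empty vector it was 2 of 9 by all miRNA reads (miR-23a-5p and miR-27b-3p), where 38.4% of 471 untransfected miRNAs were called. It was 1 of 9 by TMM and 1 of 9 by the median of ratios (miR-23a-3p), where 20.6% and 20.8% were called. With a mean of at least 10 reads or no filter it was 1 of 10 for mutant 1 against the empty vector, where 31.8% and 43.1% were called. Against wild type it was 1 of 10, where 27.2% and 39.7% were called. In each case this 1 is miR-24-3p, let in by the lower minimum. With the most frequent isoform only, the shares with the empty vector were 70.01% for miR-23a-3p, 15.4% for miR-27a-3p and 92.98% for miR-24-2-5p in their pairs, and the 5p share was 3.49% for mir-23a, 3.96% for mir-27a and 0.165% for mir-27b. With reads at the miRBase start only, the 5p share was 1.96% for mir-23a and 94.4% for mir-24. At the most frequent 3p end, the share at the miRBase start was 98.8% for miR-23a-3p, 93.8% for miR-23a-5p, 93.7% for miR-23b-3p, 16.8% for miR-24-2-5p and 99.5% for miR-27b-3p. Among reads at the miRBase start, the most frequent 3p end held 87.1% of miR-23a-5p, 51.9% of miR-23b-3p, 87.0% of miR-24-1-5p and 91.95% of miR-24-2-5p. Of 200 recomputed log2 ratios of members, 105 left their counting interval, 32 of them among the 40 scaled by miR-16-5p and 4 among the 40 from reads at the miRBase start. Without reads that end at or before base 19, the miR-27a-3p share with the empty vector was 14.7%. The count of hairpins past 1.5-fold in the ratio of 5p to 3p reads was 1 of 3 for mutant 1 against the empty vector and against wild type. It was 0 in both with the most frequent isoform, where 44.6% and 26.4% of untransfected hairpins passed. With reads at the miRBase start it was unchanged, where 44.8% and 30.8% passed. For shares added after seeing the data, miR-27a-5p held 81.98% of its pair with the empty vector and the most frequent isoform. The 5p share of mir-23b with reads at the miRBase start was 0.0206% with the empty vector and 0 with wild type and mutant 2. Paralogue shares stayed in their intervals with isoforms specific to 1 hairpin. That setting removed at most 6 reads of a strand in a library, so the shares could hardly have moved. The causes were not tested. Of the recomputed shares in each library, 0 of 14 for paralogues and 0 of 10 for arms crossed 50%. The arm shares lie so far from 50% that this says nothing of their stability, and 29 of 40 recomputed ones left their intervals. Low read numbers limit miR-23b-5p, and how reads were listed limits miR-24-3p and miR-24-1-5p.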
